A study of Bos taurus with 24 samples.

Results

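miR-143 and miR-145 are a pair of miRNAs transcribed from neighbouring hairpins and are known above all from smooth muscle. The pair was examined by small RNA sequencing of mammary gland biopsies taken from lactating Holstein (HOLS) and Montbéliarde (MONT) cows. The members were chosen by name, as the rows of the deposited tables that list bta-miR-143 and bta-miR-145, and are 2 of the 796 miRNAs listed. Each cow was biopsied before feed restriction (CONT, day 0, fed without limit) and after it (REST, day 6), so that a cow serves as its own control. The groups were HOLS CONT and HOLS REST, with 5 cows each, and MONT CONT and MONT REST, with 6 cows each, which gives 22 libraries. The labels put the restricted feed at 60% of the net energy of lactation calculated beforehand, whereas the study's methods give a lower percentage. The cows were multiparous and in midlactation, and their ages are not given. Per the study's methods the biopsies of a cow came from alternate sides of the rear udder. No cow was fed without limit throughout, so the feed restriction, the elapsed days, the side and the earlier biopsy cannot be told apart.

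As background, miR-143 and miR-145 are processed from a shared primary transcript, which serum response factor and myocardin switch on in smooth muscle cells. They help to hold these cells in the contractile state, and miR-145 is known to target KLF4 and KLF5, regulators of the synthetic state. In the udder, smooth muscle lies in blood vessels and around the teat and larger ducts, while the contractile cells around the alveoli are myoepithelial, and fibroblasts carry the pair as well. In the RefSeq annotation of the bovine assembly ARS-UCD2.0, MIR143 and MIR145 lie under 10 kb apart on 1 chromosome, with 0 gene starts between them and both within the long noncoding RNA gene LOC132345768. IL17B and PCYOX1L are the next protein-coding genes on one side and CSNK1A1 and ARHGEF37 on the other. The authors aligned reads to another build, btau5.0.1, so no positions are given, and mature sequences were not used here.

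The 2 miRNAs differed in abundance far more than any condition changed them. Levels are given as normalized counts, the counts of a library divided by a DESeq2 size factor estimated over all 22 libraries. In each of the 22 libraries miR-143 ranked 1 in counts, with a mean of 2890346 normalized counts. miR-145 had a mean of 4200 normalized counts and ranked 75 over all libraries, between miR-204 (4372) and miR-532 (4089). The mean of miR-143 was 688 times that of miR-145. Both are mature miRNAs of similar length, so the counts were not divided by length, but adapters ligate to miRNAs with unequal efficiency and this fold need not be a fold of molecules.

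In HOLS miR-143 took 21.2% of all counts, and the next miRNA, miR-30a-5p, had a mean of 1200251 normalized counts against 2395132 for miR-143. In MONT miR-143 took 30.4% of all counts, and miR-10b followed with a mean of 925258 normalized counts against 3303024. miR-145 took 0.0421% of the counts in HOLS, where it ranked 73, and 0.0366% in MONT, where it ranked 78. Its neighbours in HOLS were miR-24-3p, with a mean of 5067 normalized counts, and miR-146a, with 4468, and in MONT they were miR-2284x (3915) and miR-130a (3544). The rank of miR-145 in single libraries lay between 65 and 101, the lowest place being in the CONT library of MONT cow 5663. That library had the lowest total, 6087865 counts, of which 960 were miR-145, a share of 0.0158% with a 95% Wilson interval of 0.0148% to 0.0168%. Intervals of shares cover counting error only.

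The share of miR-143 was 18.7% ± 1.95 (SD, n = 5) in HOLS CONT and 22.8% ± 2.59 in HOLS REST. It was 27.7% ± 4.83 (SD, n = 6) in MONT CONT and 31.2% ± 6.19 in MONT REST. The highest share, 42.5%, was that of cow 2614 in MONT REST, and the lowest, 15.9%, that of cow 1165 in HOLS CONT. The share of miR-145 was 0.0396% ± 0.00715 before and 0.0422% ± 0.00893 after restriction in HOLS, and 0.0332% ± 0.0127 before and 0.0349% ± 0.0123 after it in MONT. The counts of miR-143 are a large part of this total. Without miR-143 in the total the mean share of miR-145 was 0.0489% and 0.0548% in HOLS CONT and REST. In MONT CONT and REST it was then 0.0465% and 0.0523%. For miR-145 the groups overlapped widely, and the range of MONT held the whole range of HOLS in each period.

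**Figure D1:**
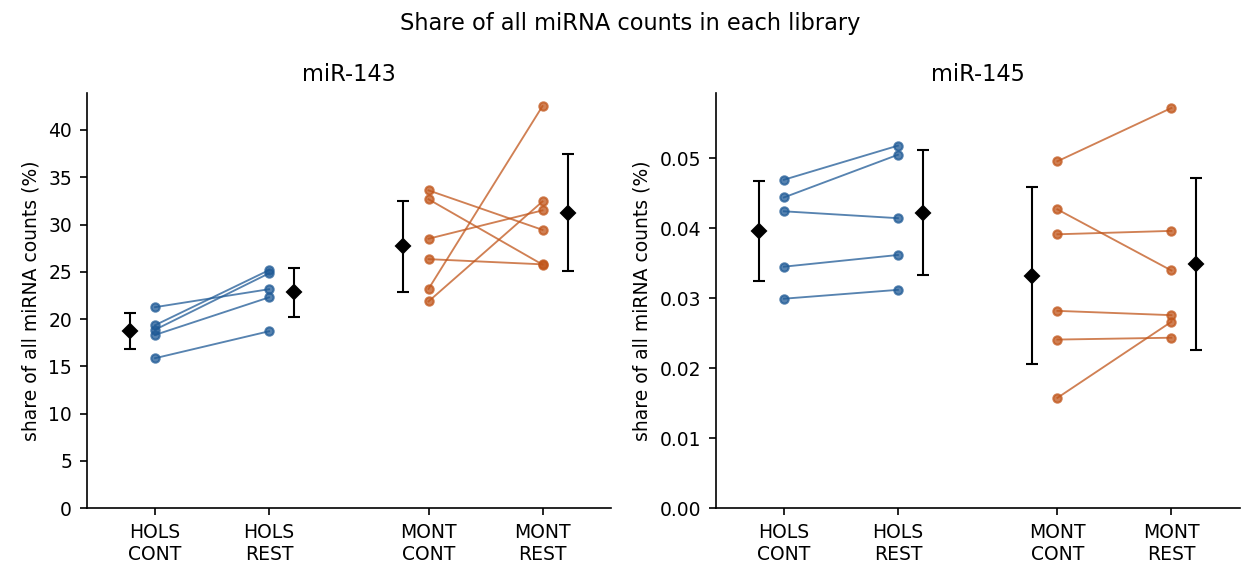
Share of all miRNA counts (%, from 0) taken by miR-143 (left) and miR-145 (right) in each library. Points are libraries, lines join both libraries of the same cow (blue HOLS, orange MONT), and diamonds with bars are group means ± SD. The mean share of miR-143 lay at 18.7% in HOLS CONT and at 31.2% in MONT REST, while the means of miR-145 lay between 0.0332% and 0.0422%.

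The next comparison asked whether feed restriction altered the pair in HOLS. In HOLS both miRNAs were higher in REST than in CONT in every cow, miR-143 by 1.37 times and miR-145 by 1.19 times in the fit. The normalized counts of miR-143 in CONT were 1893903, 1652604, 1988975, 2525926 and 2037432 in cows 1155, 1165, 2182, 8200 and 9195. In REST they were 3156948, 2465107, 2719790, 2640312 and 2870325 in the same order. In 4 of 5 cows the REST library lay above each of the CONT libraries, and the exception was cow 1165, whose REST library lay below the CONT library of cow 8200. For miR-145 the normalized counts were 4152, 3596, 3155, 5277 and 5219 in CONT and 5198, 4768, 3417, 5759 and 6671 in REST. The 2 periods overlapped for miR-145, since cows differed from each other more than the periods did, with cow 2182 lowest in both. Of the 374 miRNAs tested in HOLS, 15.0% were higher in REST in every cow, and 7.22% did not overlap between the periods.

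The change per cow, as log2 of REST over CONT, was 0.74, 0.58, 0.45, 0.06 and 0.49 for miR-143 in cows 1155, 1165, 2182, 8200 and 9195. For miR-145 it was 0.32, 0.41, 0.11, 0.13 and 0.35. miR-143 had the larger change in 4 of 5 cows, and the exception was cow 8200, which had the smallest change of miR-143 and the highest CONT level. The mean change was 0.46 ± 0.25 (SD, n = 5) for miR-143 and 0.27 ± 0.14 for miR-145. In share of counts miR-143 gained between 1.90 and 5.97 percentage points in the 5 cows. The share of miR-145 was higher in REST in 4 of 5 cows and lower in cow 1155, and no cow differed by more than 0.0061 percentage points.

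In the test across all miRNAs (edgeR quasi-likelihood F test, Benjamini-Hochberg adjustment, threshold 0.05), neither member passed without the cow as a block and both passed with it. The log2 fold change of miR-143 was 0.45 (SE 0.13, 95% interval 0.17 to 0.73), with an adjusted p of 0.0738 without the block and 0.0287 with it. For miR-145 it was 0.26 (SE 0.19, 95% interval -0.16 to 0.68), with an adjusted p of 0.457. With the block the interval of miR-145 was 0.08 to 0.43 and the adjusted p 0.0491. The unadjusted p of miR-143 without the block was 0.00414, and 23.3% of the 374 miRNAs had one under 0.05. Without the block 2.41% of the miRNAs passed, and with it 16.3%, so that the call of both members came in a fit that called 61 miRNAs. By log2 fold change without the block miR-143 ranked 37 of 374 and miR-145 ranked 87, and the median over all tested miRNAs was 0.02.

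Most of the blocked calls were lost when 1 cow was left out. Leaving out a cow also makes the sample smaller, so these fits cannot tell the part of a single cow from that loss. With the block, miR-143 passed without cow 8200 (adjusted p 0.0134) and did not pass without cow 1155, 1165, 2182 or 9195 (adjusted p 0.0969, 0.125, 0.0875 and 0.120), while its log2 fold change stayed between 0.37 and 0.54. miR-145 passed in 0 of the 5 fits, with adjusted p from 0.0749 to 0.193 and log2 fold changes from 0.20 to 0.28. With library size alone as the scaling, the median change of all tested miRNAs in HOLS moved from 0.02 to -0.15 on the log2 scale, and the log2 fold change of miR-145 with the block was 0.08 (adjusted p 0.562). Relative to the median of all tested miRNAs the mean change per cow was 0.44 for miR-143 and 0.24 for miR-145 under either scaling. This sameness is built in, since a scaling shifts all miRNAs of a library alike, and it is no test of the scaling.

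**Figure D2:**
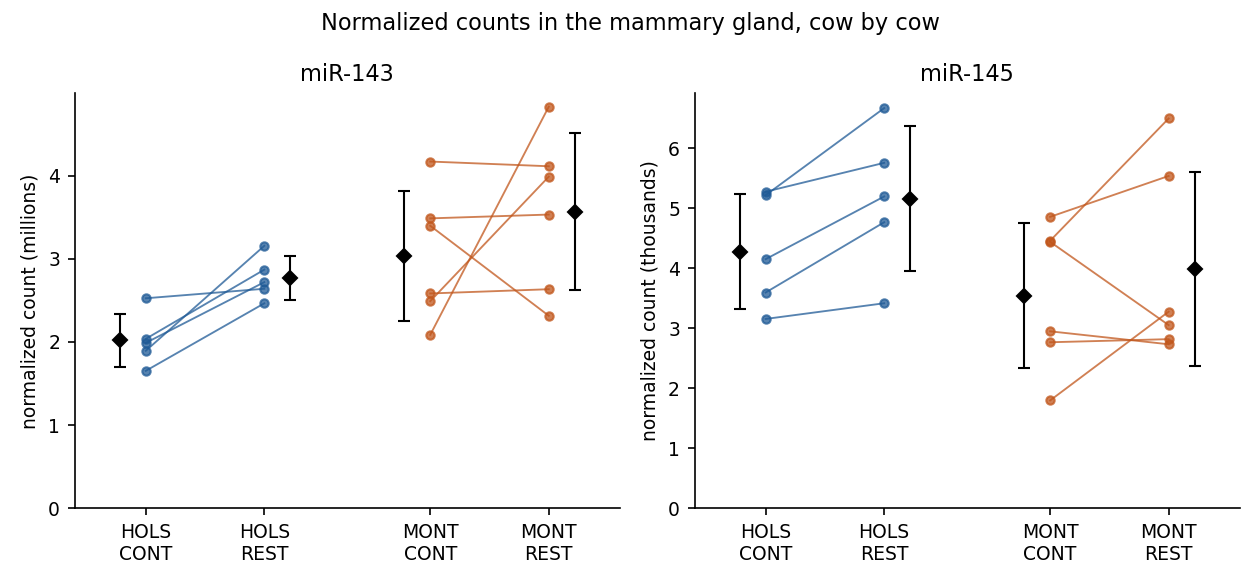
Normalized counts of miR-143 (left) and miR-145 (right) by breed and period, with both y axes from 0. Points are libraries, lines join both libraries of the same cow, and diamonds with bars are group means ± SD (5 HOLS and 6 MONT cows). All 5 HOLS lines go up for both miRNAs, whereas the MONT lines go up and down.

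In MONT the same comparison gave changes of both signs. The normalized counts of miR-143 had a lowest value of 2085653, a median of 2991176 and a highest value of 4171302 in CONT, against 2315406, 3761325 and 4831186 in REST. Those of miR-145 had a lowest value of 1796, a median of 3695 and a highest value of 4858 in CONT, against 2733, 3165 and 6498 in REST. The ranges of the periods overlapped for both miRNAs, and for miR-145 the median of REST was the lower one although its mean, 3986 ± 1614 (SD, n = 6), was above that of CONT, 3545 ± 1215. Of the 349 miRNAs tested in MONT, 0.287% did not overlap between the periods and 3.15% were higher in REST in every cow.

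The log2 change of miR-143 was 0.02, 0.03, -0.55, 1.21, 0.68 and -0.02 in cows 1613, 1640, 1652, 2614, 5663 and 9615. For miR-145 it was -0.11, 0.03, -0.54, 0.54, 0.87 and 0.19 in the same cows. Both were higher in REST in 3 cows, both lower in 1 and opposite in sign in 2, and the sign in cow 1640 turned for both when the libraries were scaled within the breed. The changes that stood out were the higher levels in cows 2614 and 5663 and the lower ones in cow 1652, while miR-143 in the remaining 3 cows moved by at most 0.03 on the log2 scale. In share of counts miR-143 moved from -6.91 percentage points in cow 1652 to 19.3 in cow 2614.

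Neither member passed the edgeR test in MONT. The log2 fold change was 0.23 for miR-143 (SE 0.21, 95% interval -0.22 to 0.68, adjusted p 0.564) and 0.16 for miR-145 (SE 0.29, 95% interval -0.47 to 0.79, adjusted p 0.798). Blocking on the cow gave adjusted p of 0.582 and 0.649. None of the 349 miRNAs (0%) passed in this comparison by edgeR or by DESeq2, and 47 had an unadjusted p under 0.05 by edgeR. The log2 fold change of miR-143 without cow 2614 was 0.05, and without cow 1652 it was 0.33.

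Whether the change under restriction differed between HOLS and MONT was tested with a breed by period interaction in the 22 libraries. Without the cow as a block, the log2 difference of the changes, HOLS minus MONT, was 0.16 for miR-143 (95% interval -0.41 to 0.72) and 0.04 for miR-145 (95% interval -0.77 to 0.84), with an adjusted p of 0.991 for each. With the block it was 0.19 for miR-143 (95% interval -0.42 to 0.81, adjusted p 0.985). For miR-145 it was then 0.06 (95% interval -0.42 to 0.54, adjusted p 0.994). By edgeR 0 of 388 miRNAs (0%) passed with or without the block, and 3 had an unadjusted p under 0.05 without it. The intervals of both fits were wide enough to hold the whole HOLS change of either miRNA, so a difference of that size was neither shown nor excluded.

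The breeds were then compared within each period, on counts scaled over both tables. The study reports more adapter and short reads in the MONT libraries, so breed and library quality cannot be told apart in any comparison of the breeds. The 2 miRNAs of the pair lay in opposite directions, with miR-143 lower and miR-145 higher in HOLS than in MONT in both periods, but neither passed the test. In CONT the normalized counts of miR-143 averaged 2019768 ± 319416 (SD, n = 5) in HOLS and 3036288 ± 778295 (SD, n = 6) in MONT, and 4 of 5 HOLS cows lay below each MONT cow. The log2 fold change was -0.59 (SE 0.19, 95% interval -1.01 to -0.17), with an unadjusted p of 0.00917 by edgeR and an adjusted p of 0.150. In this comparison 0.556% of 360 miRNAs passed, 20.3% had an unadjusted p under 0.05 and 2.78% did not overlap. For miR-145 in CONT the means were 4280 ± 952 in HOLS and 3545 ± 1215 in MONT, with a log2 fold change of 0.27 (SE 0.25, adjusted p 0.598).

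In REST the mean of miR-143 was 2770496 ± 260812 in HOLS and 3569760 ± 950073 in MONT, with a log2 fold change of -0.36 (SE 0.19, 95% interval -0.77 to 0.05, adjusted p 0.202). The HOLS values sat within the range of MONT, whose cows spread 2.09 times from lowest to highest against 1.28 times in HOLS. For miR-145 the means in REST were 5162 ± 1208 and 3986 ± 1614, and the log2 fold change was 0.37 (SE 0.26, adjusted p 0.344). Over all miRNAs in REST 15.3% of 378 passed, 33.1% had an unadjusted p under 0.05 and 8.99% did not overlap.

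**Figure D3:**
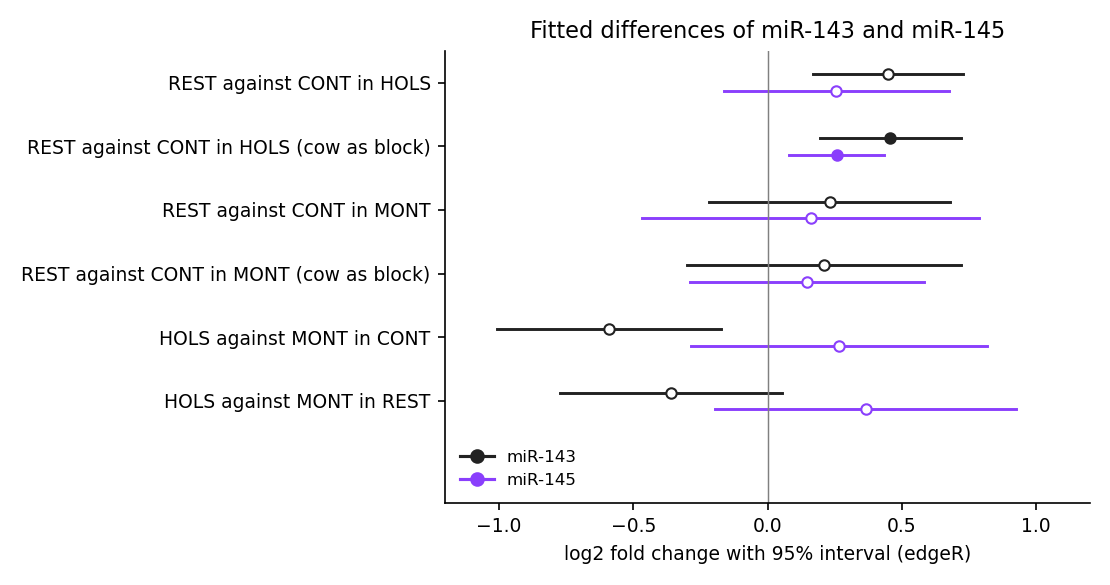
Log2 fold changes (x axis) of miR-143 (black) and miR-145 (purple) with 95% intervals from edgeR for each comparison (y axis). Filled points have an adjusted p of at most 0.05, open points do not. Only the 2 points of HOLS with the cow as a block are filled (adjusted p 0.0287 and 0.0491), and in the breed comparisons the 2 miRNAs lie on opposite sides of 0.

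The ratio of miR-143 to miR-145 counts within a library needs no scaling between libraries. This ratio was lower in HOLS than in MONT in both periods. Library quality, which the study reports as lower in MONT, cannot be told apart from breed here either. In HOLS it was 456, 460, 630, 479 and 390 in CONT and 607, 517, 796, 459 and 430 in REST for cows 1155, 1165, 2182, 8200 and 9195. In MONT its lowest value was 468, its median 896 and its highest value 1387 in CONT, against 743, 847 and 1293 in REST. The overlap of the breeds came from cow 2614 in MONT CONT, at 468, and from cow 2182 in HOLS, which had the highest ratio of its breed in both periods.

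The geometric mean of the ratio was 477 in HOLS CONT and 882 in MONT CONT, a log2 difference of -0.89, that is 0.541 times (two-sided exact permutation test, p = 0.0130, adjusted p = 0.0346 over the 4 contrasts of the ratio). In REST it was 548 and 922, a log2 difference of -0.75, that is 0.594 times (exact permutation p = 0.0173, adjusted p = 0.0346). Leaving out each cow in turn gave log2 differences from -1.07 to -0.76 in CONT (exact permutation p from 0.00794 to 0.0286) and from -0.89 to -0.65 in REST (exact permutation p from 0.00952 to 0.0381). The 2 periods hold the same cows and are not independent of each other. Total counts also tended to be higher in HOLS. In CONT the median was 10786816 in HOLS (7431936 to 16808976) and 9107961 in MONT (6087865 to 11395785). In REST it was 14376578 in HOLS (11108829 to 18149037) and 10756330 in MONT (7817027 to 18913916), where the range of MONT held that of HOLS. Across the cows of HOLS CONT, MONT CONT and MONT REST the ratio was mostly lower at a higher total. In HOLS CONT it was lower in each library of higher total, from 630 at 7431936 counts (cow 2182) to 390 at 16808976 (cow 9195). In MONT CONT it went from 1387 at 6087865 counts (cow 5663) to 765 at 11395785 (cow 1652), with cow 2614 out of order (468 at 10532443). In MONT REST it went from 1218 and 1293 at 8851568 and 9753009 counts to 743 at 18913916, with cow 9615 out of order (743 at 7817027), while HOLS REST showed no such order. From CONT to REST within a cow both directions occurred. In cow 2182 the total went from 7431936 to 14376578 and the ratio from 630 to 796. In cow 5663 the total went from 6087865 to 8851568 and the ratio from 1387 to 1218. With the log2 total as a covariate, a fit chosen after seeing the data, the log2 difference of the breeds was -0.54 (SE 0.20) in CONT and -0.64 (SE 0.25) in REST. Over all 462 splits of the breed labels the exact permutation p was 0.0411 and 0.0433, or 0.0866 each when adjusted with the 2 contrasts of the periods, so neither passed after adjustment.

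Between the periods the ratio did not pass the test in either breed. In HOLS the log2 ratio was higher in REST by 0.20 on average, in 4 of 5 cows (exact permutation p = 0.341 unpaired and 0.125 paired, where 0.0625 is the smallest p that 5 pairs allow). In MONT the difference was 0.06, and the ratio was higher in 3 of 6 cows (exact permutation p = 0.838 unpaired and 0.844 paired). The change of the log2 ratio differed between the breeds by 0.13 (exact permutation p = 0.442).

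**Figure D4:**
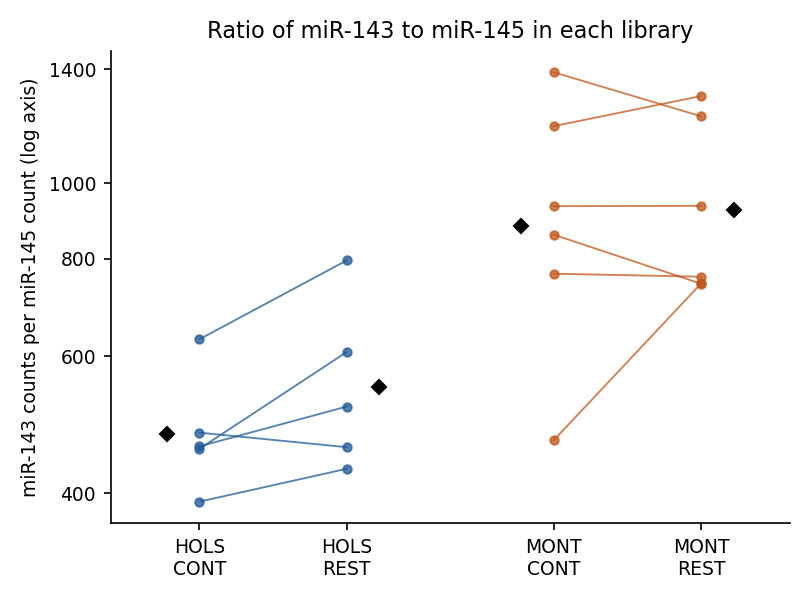
Counts of miR-143 per count of miR-145 in each library (log axis) by breed and period. Points are libraries, lines join the libraries of a cow, and diamonds are geometric means, at 477 and 548 in HOLS and at 882 and 922 in MONT. The CONT library of MONT cow 2614, at 468, lies among the HOLS libraries.

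The changes per cow of the 2 miRNAs were correlated, although their signs were opposite in 2 of 6 MONT cows. Over the 11 cows the log2 changes of miR-143 and miR-145 had a Pearson r of 0.84 (permutation p = 0.00216, adjusted p = 0.00864 over 4 relations) and a Spearman rho of 0.83 (permutation p = 0.00284, adjusted p = 0.0114). Without cows 1652 and 2614, the farthest from the median change of miR-143, r was 0.74 and rho 0.72 (exact permutation p = 0.0128 and 0.0369, adjusted 0.0257 and 0.0643, so that rho did not pass). Within the 6 MONT cows r was 0.86 and rho 0.77 (exact permutation p = 0.0306 and 0.103, adjusted 0.0407 and 0.103), and no value is given for the 5 HOLS cows, since correlations were computed over at least 6 cows. Cows 2614 and 9615 enter the values over 11 cows and within MONT, and their pairing rests on the labels alone. Their CONT and REST libraries, as deviations from the group means, had an r across miRNAs of 0.07 and -0.33. No value is given here for other pairs of miRNAs. The 2 changes of a cow share their size factors. With library size in place of size factors, r was 0.64 and rho 0.62 (permutation p = 0.0427 and 0.0482, adjusted 0.0427 and 0.0643), so that rho no longer passed.

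**Figure D5:**
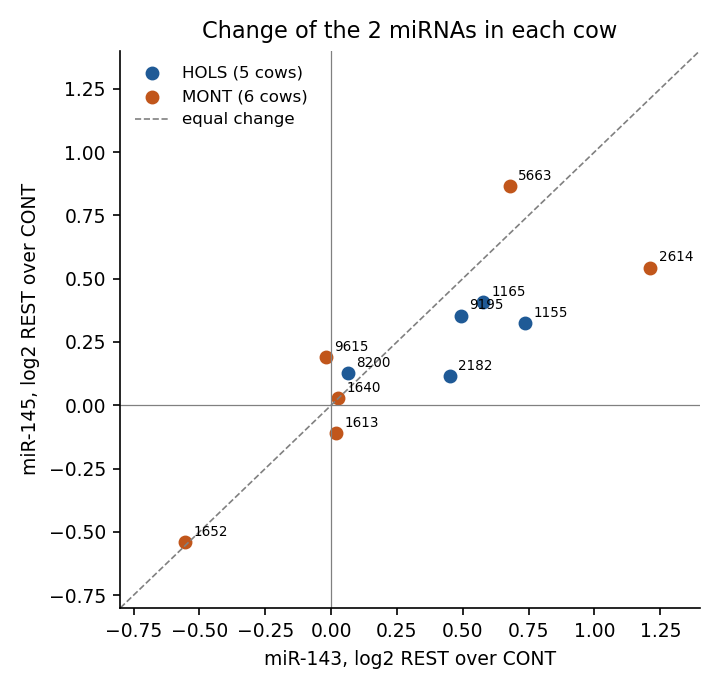
Log2 change from CONT to REST of miR-145 (y axis) against that of miR-143 (x axis), 1 point per cow with its number (blue HOLS, orange MONT), and a dashed line of equal change. Cow 1652 lies at the lower left (-0.55 and -0.54) and cow 2614 farthest to the right (1.21 and 0.54), and the HOLS cows all lie above 0 on both axes.

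The levels themselves were less alike than the changes. Over the 22 libraries the log2 levels of miR-143 and miR-145 had an r of 0.22, which as deviations from the mean of each group became 0.53. Among 218 miRNAs with a mean of at least 100 normalized counts, miR-145 ranked 5 in likeness to miR-143 by this measure, after miR-28 (0.66), miR-34a (0.55), miR-204 (0.54) and miR-10174-3p (0.54). miR-34a is known as a target of p53, and miR-204 lies in an intron of TRPM3. Seen from miR-145, miR-143 ranked 14, after miR-10174-3p (0.77), miR-18a (0.72), miR-326 (0.71), miR-132 (0.67), miR-195 (0.64) and 8 others. miR-18a belongs to the cluster that holds miR-17, and miR-195 to the family of miR-15 and miR-16. These correlations are a description over libraries that share cows and size factors, and no test was made.

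The other miRNAs known to act on the state of smooth muscle were 9, all of which passed the filter. In HOLS 0 of 9 passed without the block, 8 of 9 had a log2 fold change above 0, and their median was 0.23 against 0.02 over all tested miRNAs. With the block 3 of 9 passed, all higher in REST, in a fit where 16.3% of all tested miRNAs passed. These were miR-31 (log2 fold change 0.40, adjusted p 0.0139), which is known to promote the growth of vascular smooth muscle, miR-222 (0.48, adjusted p 0.0216), which lowers the cell cycle inhibitor p27, and miR-146a (0.37, adjusted p 0.0491), which targets KLF4 and is also an inflammatory miRNA. miR-221, encoded beside miR-222, had a log2 fold change of 0.23 (adjusted p 0.103). Of the muscle miRNAs, miR-133a lay at -0.24 (adjusted p 0.408) and miR-1 at 0.23 (adjusted p 0.631), with a mean of 926 and 51.1 normalized counts.

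In MONT 0 of the 9 passed and 7 had a log2 fold change above 0, with a median of 0.15 against -0.01 over all tested miRNAs. Between the breeds, none of the 9 lay above 0 for HOLS against MONT in CONT (median -0.42), and 0 passed. In REST 2 of 9 lay above 0, and 3 of 9 passed, each lower in HOLS than in MONT, beside 15.3% of all tested miRNAs. These were miR-31 (-0.97, adjusted p 0.0148), miR-221 (-0.83, adjusted p 0.0115) and miR-222 (-0.73, adjusted p 0.0267). In both periods the median of the list lay below 0, as did miR-143, whereas miR-145 lay above 0.

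Marker miRNAs of other cell types were set beside the pair. In bulk tissue fewer cells of a type and less RNA per cell cannot be told apart. The summed level of each list was made up mostly of a single marker. By mean normalized count these were miR-199a-3p (10967) for fibroblasts, miR-126-5p (293173) for endothelium and miR-141 (264509) for epithelium. For red blood cells it was miR-486 (36413), for leukocytes miR-142-5p (26252) and for skeletal muscle miR-133a (926). miR-133a is also in the smooth muscle list. Fibroblast stroma (miR-199a-3p, miR-199a-5p, miR-199b and miR-214, a list without a muscle miRNA) had 4 of 4 markers above 0 in HOLS, with a median log2 fold change of 0.29 and 0 of 4 past the test with or without the block. Its summed level ranged from 9327 to 12082 normalized counts in HOLS CONT and from 10714 to 15924 in HOLS REST. In MONT it was 4 of 4 above 0 with a median of 0.69, with 0 of 4 past the test, and the summed level spanned 8824 to 30175 in CONT and 15192 to 36904 in REST. The summed fibroblast markers were higher in REST in 5 of 5 HOLS cows, by 0.17 to 0.77 on the log2 scale, and in 5 of 6 MONT cows. In cow 1652, where both members of the pair were lower in REST, the summed fibroblast markers were higher by 1.14 on the log2 scale. In cow 2614, where both members were higher, the summed fibroblast markers were higher by 1.59, skeletal muscle by 1.61 and leukocytes by 0.93, and the epithelial sum was lower (-1.04). In cow 5663, where both members were higher as well, the fibroblast sum changed by 0.78 and the epithelial sum by -0.56. In cow 9615, where miR-143 changed by -0.02, the fibroblast sum changed by -0.99 and the epithelial sum by 0.82. In cows 1613 and 1640 miR-143 changed by 0.02 and 0.03. There the fibroblast sum changed by 1.38 and 0.55 and the epithelial sum by -0.36 and -0.08.

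The 2 endothelial markers, miR-126-3p and miR-126-5p, had log2 fold changes of 0.32 each in HOLS. Of these 2, miR-126-3p passed with the block (adjusted p 0.0476), beside 16.3% of all tested miRNAs. Their summed level in HOLS was 273690 to 361948 in CONT and 326521 to 483727 in REST. In MONT it was 260885 to 333614 in CONT and 204432 to 356649 in REST. Of 9 epithelial markers listed, among them the miR-200 family, 3 lay above 0 in HOLS, with a median of -0.14, and 3 passed as lower in REST with the block, beside 16.3% of all tested miRNAs. In MONT 2 of 9 lay above 0 (median -0.42) and 0 passed. In HOLS their summed level was 450390 to 563496 in CONT and 343471 to 683010 in REST. In MONT it was 231297 to 578864 in CONT and 176963 to 418218 in REST.

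The 3 red blood cell markers summed to 26089 to 43359 normalized counts in HOLS CONT and 38170 to 49031 in HOLS REST. In HOLS 1 of 3 lay above 0 and 1 passed with the block, beside 16.3% of all tested miRNAs. In MONT 0 of 3 lay above 0, and they summed to 25312 to 64409 in CONT and 13333 to 51176 in REST. The 4 leukocyte markers summed to 18663 to 28717 in CONT and 17664 to 41515 in REST of HOLS, with a median log2 fold change of 0.16. Of these 4, miR-142-5p passed with the block (0.33, adjusted p 0.0476), beside the same 16.3% of all tested miRNAs. In MONT they summed to 17928 to 39971 in CONT and 20531 to 41034 in REST, with a median of 0.11. The 3 skeletal muscle markers listed, miR-1, miR-133a and miR-133b, were low, between 426 and 1990 in sum over all libraries, and of the 2 tested, miR-1 and miR-133a, 0 passed. Between the breeds in REST, where 15.3% of all tested miRNAs passed, all 4 fibroblast markers were lower in HOLS (median -0.97), and 3 of 4 passed. Of the epithelial markers miR-141 (1.06, adjusted p 0.0452) and miR-200c (0.99, adjusted p 0.0403) were higher in HOLS and miR-205 (-0.59, adjusted p 0.0259) was lower, and of the endothelial ones miR-126-3p was higher (0.53, adjusted p 0.0301). In CONT 0 markers of any list passed between the breeds. No listed marker was at 0 in a library, and the part of these cell types in the results of miR-143 and miR-145 was not tested.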

How the data were processed

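Small RNA libraries (TruSeq, single-end HiSeq reads) were made from mammary gland biopsies of 5 HOLS and 6 MONT cows in CONT and REST. The labels also list 2 samples of a further HOLS cow, which are not analysed here. The authors removed adapters, filtered reads by size, quantified them with ncPRO-seq and aligned them to btau5.0.1 and miRBase with miRDeep2. The deposited counts are whole read counts per miRNA without normalization. The deposited normalized counts, a signal per library, are these counts scaled in each library by its DESeq2 size factor, estimated within a breed (DESeq2 1.18.1 in the submitters' processing notes). The tables also hold the authors' group means, fold changes and p-values, which were not used.

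From the counts, size factors were estimated over all 22 libraries for normalized counts, with a pseudocount of 1 for log2 values. Differences were tested with edgeR 4.0.16 in R 4.3.3 (TMM, filterByExpr with a minimum count of 10, quasi-likelihood F test, Benjamini-Hochberg adjustment over all miRNAs tested, threshold 0.05). Within a breed the fit had no block, since the study's methods name none. The breeds were compared in the 11 libraries of each period, and the interaction in all 22. The ratio was tested by two-sided exact permutation, and correlations with 100000 resamples over all 11 cows or exactly in the smaller sets of cows (scipy 1.17.1). The edgeR fits were tested on simulated data drawn without a cow effect, so the simulation does not bear on what the block adds. Alternatives were DESeq2 1.42.0, the cow as a block, other scalings, no filter, all libraries in 1 fit, each cow left out and, for the ratio between the breeds, the library total as a covariate.

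Libraries that share a cow number in their titles were taken as those of the same cow. As deviations from the group means, the libraries of a cow had an r across miRNAs of 0.25 to 0.53 in HOLS and of 0.45, 0.76, 0.64, 0.07, 0.58 and -0.33 in MONT cows 1613, 1640, 1652, 2614, 5663 and 9615. For cows 2614 and 9615 the values do not show the pairing, which rests on the labels alone, as do their changes per cow. Total counts ranged from 6087865 to 18913916, so that a share of counts has a counting error far below the spread between cows. No library pair held identical values, and no other miRNA had the counts of miR-143 or miR-145 in every library.

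The members, all lists and the naming rule were chosen with earlier results of these data known. The rule names the pair, the 5 miRNAs most like each by correlation of deviations from group means, 9 miRNAs known from smooth muscle, and the neighbours in abundance. Markers of fibroblasts, endothelium, epithelium, skeletal muscle, red blood cells and leukocytes were listed as well, of which miR-203 and miR-206 are not listed under these names. Names of neighbouring genes are from RefSeq, ARS-UCD2.0.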

Additional observations from a re-analysis of the deposited data

How the results depend on the processing

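Of the values of miR-143 and miR-145, 2 turned in sign, neither of them past a threshold. The log2 ratio of miR-143 to miR-145 in MONT, REST against CONT, was -0.056 without cow 2614 (-0.056 to 0.12 with 1 cow left out), and the interaction of miR-145 was -0.0926 without cow 1652 (-0.0926 to 0.205). For miR-143 in HOLS the adjusted p fell to or below 0.05 with the cow as replicate block (log2 fold change 0.46) and with DESeq2 (0.44, adjusted p 0.0172), and, in settings chosen after seeing the data, with the block and DESeq2 size factors (0.45), library size only (0.28), scaling without the pair (0.43) or DESeq2 (0.45), and with the block without cow 8200 (0.54). For miR-145 in HOLS only the block with TMM passed (0.26), and with the block and DESeq2 size factors, scaling without the pair or DESeq2 the adjusted p was 0.0562, 0.0601 and 0.0583. The block changed no other call of the pair. Without the block, leaving out each HOLS cow gave log2 fold changes of 0.36 to 0.55 for miR-143 and 0.19 to 0.30 for miR-145, none past the threshold. The cause was not tested for any of these.

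Past the threshold were 9 miRNAs in HOLS, REST against CONT, and 61 with the block, 20 with library size only, 15 with scaling without the pair, 5 without a filter, 27 with DESeq2 and 3 to 14 with 1 cow left out. In MONT it was 0, and 0 to 46 with 1 cow left out, the 46 without cow 9615. For HOLS against MONT in CONT it was 2, and 1 with library size only, 20 with DESeq2, 29 with all 22 libraries in 1 fit and 0 to 6 with 1 cow left out. In REST it was 58, and 89 with DESeq2 and 38 to 77 with 1 cow left out, the 38 without cow 1165. With the library total as a covariate the log2 difference of the ratio between the breeds was -0.54 in CONT and -0.64 in REST. The lowest count of miR-145 was 960, which bears on counting error alone. With 5 and 6 cows the spread between cows limits the comparisons, and bulk biopsies do not show which cells carry the pair.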

Other observations

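Some miRNAs went against the pair over the libraries. By the correlation of deviations from the group means over 22 libraries and 218 miRNAs, the lowest values for miR-143 were those of miR-190a (-0.57), miR-1307 (-0.55) and miR-19b (-0.47), which were named after their values were seen. For miR-145 they were miR-425-5p (-0.86), miR-423-3p (-0.82) and miR-92b (-0.78). miR-425-5p, miR-423-3p and miR-92b thus lay farther from 0 than any of the 5 miRNAs most like miR-145, of which miR-10174-3p had the highest value (0.77). The libraries share cows and size factors, and no test was made of these values.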
